A study of Homo sapiens with 6 samples.

Results

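The 10 genes described here govern passage through the G1 phase of the cell cycle. They are the D cyclins CCND1, CCND2 and CCND3, the E cyclins CCNE1 and CCNE2, the CDK inhibitors CDKN1B and CDKN2B, the phosphatase CDC25A and the RB family members RB1 and RBL1. They were taken by symbol from a table of 19977 genes. All 10 were found, and each averaged 1 TPM or more, the level asked of the 12236 genes tested. TPM expresses a transcript's abundance relative to its length and to the sum of its library. The libraries measured polyadenylated RNA of U2OS, a human osteosarcoma line, 48 hours after siRNA transfection. The siNUDT5 group, 3 libraries, received an siRNA against NUDT5, a NUDIX hydrolase of ADP-ribose, and the siCtrl group, 3 libraries, received a non-targeting siRNA, with no further treatment in either. All 6 libraries come from 1 cell line, the labels name each siRNA only by its target, and they do not mention separate cultures, so the p-values measure the spread between libraries, which may be technical.

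D cyclins bind CDK4 and CDK6 and start the phosphorylation of the RB protein, which E cyclins with CDK2 complete. CDKN2B encodes p15, which blocks CDK4 and CDK6, and CDKN1B encodes p27, which blocks cyclin E with CDK2. CDC25A removes the inhibitory phosphates from CDK2. RB1 and RBL1, which encodes p107, hold back the E2F transcription factors, whose targets include CCNE1, CCNE2, CDC25A and RBL1 themselves. U2OS cells carry an intact RB1 gene and are known for lacking p16, the product of CDKN2A.

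The knockdown and the line were checked first. NUDT5 averaged 2.82 ± 0.198 TPM in siNUDT5 and 49.1 ± 2.90 TPM in siCtrl (SD, n = 3 each). The mesenchymal genes VIM (3028 to 3589 TPM) and COL1A1 (318 to 460 TPM) were high in all 6 libraries, RUNX2 lay at 7.58 to 13.4 TPM, the leukocyte gene PTPRC and the keratinocyte gene KRT5 stayed at or below 0.328 TPM, and telomerase TERT was listed at 0 in 4 libraries and reached 0.0411 TPM at most. Of the epithelial genes, CDH1 lay at 1.82 to 2.44 TPM and did not pass, while EPCAM fell, with 5.10 to 5.70 TPM in siNUDT5 and 7.18 to 12.8 TPM in siCtrl, and its part in the results was not tested. TPM keeps no total depth, but the commonest ratio between low values put the depth of the libraries at 64.1% to 118% of that of siCtrl 1, with siCtrl 2 the shallowest. siCtrl 2 also stood apart in expression, by a median absolute difference of 0.296 from siCtrl 1 and 0.227 from siCtrl 3 on the log2(TPM + 1) scale, against 0.0967 to 0.134 between any other pair of the same group. It held the highest control value for 9 of the 10 members and the lowest for the other, CCND3, while it was the highest control for 49.96% of all tested genes. Results below are therefore also given without it where it decides them. RNA came from whole cultures, so more cells in a phase of the cycle and more RNA per cell cannot be told apart.

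Among the 10 genes CCND3 and CCNE1 rose, CDC25A fell and 7 did not pass the test. The threshold was a Benjamini-Hochberg adjusted p under 0.05 in a limma fit of log2(TPM + 1) over all tested genes, siNUDT5 minus siCtrl, two-sided. By that rule 16.1% of all tested genes passed, 10.9% higher and 5.20% lower in siNUDT5; nothing particular to the members is read from 3 of 10. The split by direction depends on scaling, since 1334 genes rose and 636 fell as deposited, 1041 rose and 895 fell after median-ratio scaling, and 1018 rose and 965 fell after quantile normalization. The siNUDT5 and siCtrl values did not overlap in 5 of the 10 members, 4 higher and 1 lower in siNUDT5, and in 37.3% of all tested genes. The members' median log2 change was 0.14 and that of all tested genes 0.05. Without siCtrl 2, 6 of the 10 passed, with CCND1, RB1 and CDKN2B added as higher. Calls also grew among all 12236 tested genes in that setting, to 3802, of which 2665 were higher and 1137 lower. Without siCtrl 3 or any 1 siNUDT5 library, 2 passed, CCND3 and CCNE1, beside 766 to 858 of all tested genes.

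**Figure D1:**
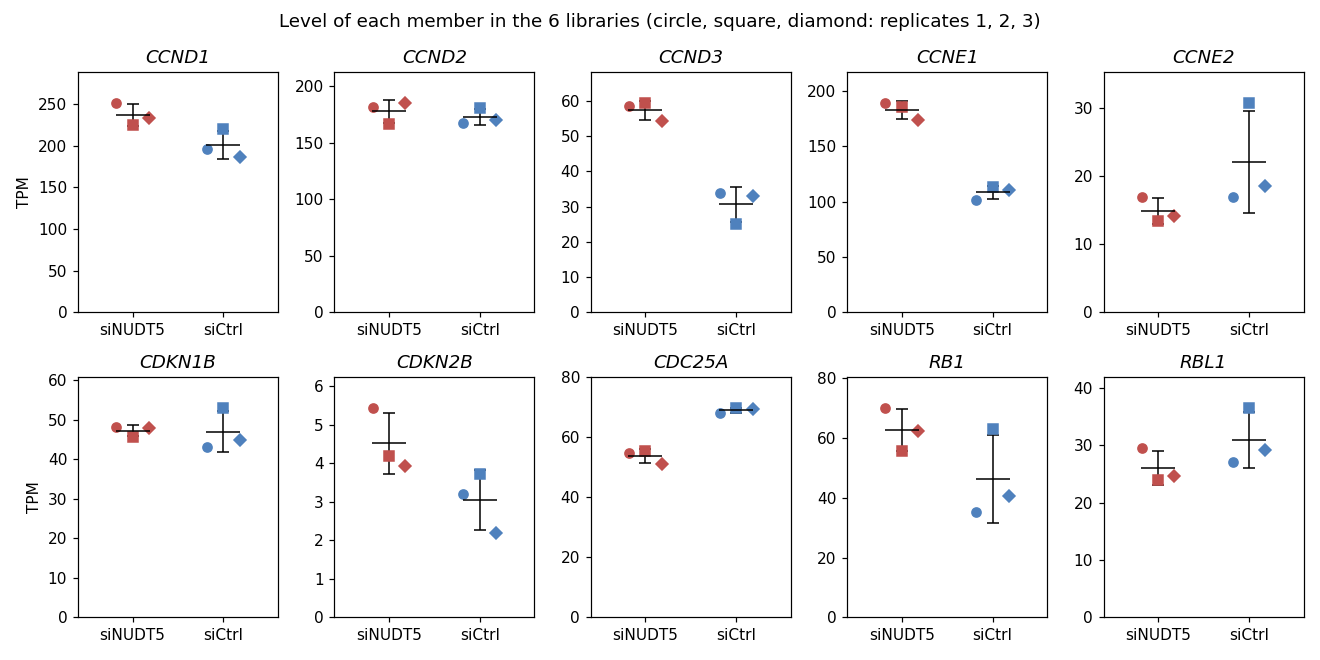
TPM of each of the 10 genes in the 3 siNUDT5 and the 3 siCtrl libraries, with the mean and SD of each group as black bars, on axes that start at 0. CCND3, CCNE1 and CDC25A separate the groups widely, whereas in RB1, CCNE2 and RBL1 the second siCtrl library (blue square) lies far above the other controls.

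The D cyclins link growth signals to the cycle, and of the 3 CCND3 passed with all libraries. CCND3 stood at 58.5, 59.4 and 54.3 TPM in siNUDT5 1 to 3, against 33.9, 25.0 and 33.1 TPM in siCtrl 1 to 3. Every siNUDT5 library lay well above every control, and siCtrl 2 was the lowest. The means were 57.4 ± 2.73 TPM in siNUDT5 and 30.7 ± 4.94 TPM in siCtrl (SD, n = 3 each), a ratio of 1.87 and a log2 change of 0.89 (standard error 0.125, limma adjusted p = 0.00312). This was the largest change among the 10 members, above the log2 change of 98.7% of all tested genes. It passed under all 14 alternatives tried, with log2 changes of 0.76 (without siCtrl 2) to 0.97.

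CCND1, the most abundant of the 10 transcripts in both groups, stood at 251, 225 and 234 TPM in siNUDT5 1 to 3, against 197, 220 and 186 TPM in siCtrl 1 to 3. The groups did not overlap, but siCtrl 2 came within a few TPM of the lowest siNUDT5 library. Its log2 change was 0.24 (95% interval 0.04 to 0.44) and it did not pass, with limma adjusted p = 0.104. Without siCtrl 2 the log2 change was 0.30 with adjusted p = 0.00611. CCND2 stood at 182, 166 and 185 TPM in siNUDT5 1 to 3, against 167, 181 and 170 TPM in siCtrl 1 to 3. The groups overlapped throughout, and the log2 change of 0.04 had a 95% interval of -0.14 to 0.22. Its sign turned with scaling, at -0.014 after median-ratio scaling.

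Shares within the D cyclins do not depend on the scaling of a library. CCND3 held 11.9%, 13.2% and 11.5% of the summed D cyclin TPM in siNUDT5 1 to 3, against 8.52%, 5.87% and 8.51% in siCtrl 1 to 3. CCND2 held 37.7 ± 1.25% in siNUDT5 and 42.7 ± 0.825% in siCtrl (SD, n = 3 each), again without overlap. The exact two-sided permutation test gave p = 0.1 for either gene, the smallest that 3 against 3 libraries allow. The shares of a library make up a fixed whole, so a higher CCND3 share lowers the remainder. The CCND2 share falls when either of the other genes rises, and the parts of CCND3 and CCND1 in its fall were not separated. CCND2 itself had a log2 change of 0.04, CCND3 one of 0.89, and CCND1 one of 0.24 that did not pass. Of the D cyclin shares only that of CCND1 was planned. CCND1 held 50.2 ± 0.863% in siNUDT5 and 49.6 ± 1.93% in siCtrl (SD, n = 3 each), a difference within the spread (exact permutation p = 0.8). The 3 genes together amounted to 472 ± 20.3 TPM in siNUDT5 and 404 ± 18.9 TPM in siCtrl.

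**Figure D2:**
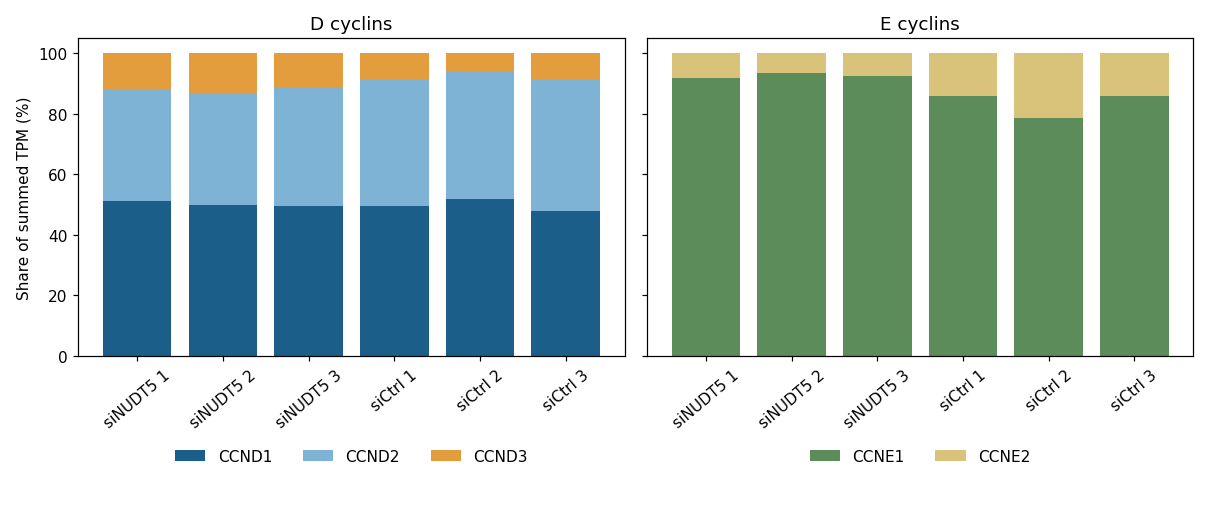
Share of the summed TPM of the D cyclins (left) and of the E cyclins (right) held by each gene, in percent, for each of the 6 libraries. The CCND3 share is 11.5% to 13.2% in siNUDT5 and 5.87% to 8.52% in siCtrl, and the CCNE1 share is 91.8% to 93.3% in siNUDT5 and 78.6% to 85.7% in siCtrl.

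The E cyclins activate CDK2 late in G1, and CCNE1 rose while CCNE2 did not pass. CCNE1 stood at 189, 186 and 174 TPM in siNUDT5 1 to 3, against 102, 113 and 111 TPM in siCtrl 1 to 3. The groups were far apart and each was tight. The means were 183 ± 8.15 TPM in siNUDT5 and 109 ± 5.96 TPM in siCtrl (SD, n = 3 each), a ratio of 1.68 and a log2 change of 0.75 (standard error 0.0794, limma adjusted p = 0.00120), the lowest adjusted p of the 10. CCNE1 passed under all 14 alternatives, with log2 changes of 0.69 to 0.78.

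CCNE2 stood at 17.0, 13.4 and 14.1 TPM in siNUDT5 1 to 3, against 17.0, 30.7 and 18.5 TPM in siCtrl 1 to 3. The highest siNUDT5 library matched the lowest control, and siCtrl 2 lay far above the rest. The log2 change was -0.50 (95% interval -0.97 to -0.03), not past the threshold at limma adjusted p = 0.139, and it was -0.25 without siCtrl 2. INTS8 and NDUFAF6, which overlap CCNE2 on the opposite strand in GENCODE 29, had their highest values in siCtrl 2 too, at 34.4 and 10.8 TPM. The sources used here do not say whether counting used strand, and their part in the CCNE2 values was not tested. Of the summed E cyclin TPM, CCNE1 held 91.8%, 93.3% and 92.5% in siNUDT5 1 to 3, against 85.7%, 78.6% and 85.7% in siCtrl 1 to 3 (exact permutation p = 0.1, the smallest possible). The difference was 9.15 percentage points, and 6.81 without siCtrl 2. The sum of both genes was 198 ± 9.28 TPM in siNUDT5 and 131 ± 12.6 TPM in siCtrl (SD, n = 3 each).

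The 2 CDK inhibitors among the members did not pass. CDKN1B stood at 48.0, 45.6 and 47.9 TPM in siNUDT5 1 to 3, against 43.1, 52.8 and 44.8 TPM in siCtrl 1 to 3. The siNUDT5 values lay inside the range of the controls, and the log2 change was 0.01 with a 95% interval of -0.21 to 0.24. Its sign turned with the scaling and with the control left out. CDKN2B, the lowest of the 10 transcripts in both groups, stood at 5.42, 4.20 and 3.94 TPM in siNUDT5 1 to 3, against 3.19, 3.72 and 2.20 TPM in siCtrl 1 to 3. The groups did not overlap, yet the nearest values were close. The log2 change was 0.46 (95% interval 0.07 to 0.85, limma adjusted p = 0.107), 0.58 with adjusted p = 0.0130 without siCtrl 2, and 0.30 with adjusted p = 0.309 without siCtrl 3. On this scale a change of so low a gene is understated.

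CDC25A was the member that fell. CDC25A was at 54.8, 55.6 and 51.2 TPM in siNUDT5 1 to 3, against 68.2, 69.6 and 69.5 TPM in siCtrl 1 to 3. All siNUDT5 values lay below all controls, and here siCtrl 2 lay close to the other controls. The means were 53.9 ± 2.33 TPM in siNUDT5 and 69.1 ± 0.816 TPM in siCtrl (SD, n = 3 each), a ratio of 0.780 and a log2 change of -0.35 (standard error 0.0781, limma adjusted p = 0.0195). The call was lost without siCtrl 3 (adjusted p = 0.0936) and without siNUDT5 1, 2 or 3 (0.0758, 0.0734 and 0.103), while the log2 change stayed between -0.38 and -0.32 over all single libraries left out.

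The RB family members are the substrates on which the cyclins act. RB1 stood at 69.9, 55.8 and 62.3 TPM in siNUDT5 1 to 3, against 35.3, 62.9 and 40.7 TPM in siCtrl 1 to 3. siCtrl 2 alone overlapped the siNUDT5 libraries, and the other controls lay well below them. The log2 change was 0.47 (95% interval 0.02 to 0.91, limma adjusted p = 0.145) with all libraries. It was 0.70 with adjusted p = 0.000242 without siCtrl 2, and 0.30 with adjusted p = 0.277 without siCtrl 1. LPAR6 and RCBTB2, which overlap RB1 on the opposite strand, stood at most at 0.0552 and 5.65 TPM, far below RB1. RBL1 stood at 29.5, 24.0 and 24.6 TPM in siNUDT5 1 to 3, against 27.1, 36.4 and 29.2 TPM in siCtrl 1 to 3. The groups overlapped, and the log2 change was -0.23 (95% interval -0.54 to 0.07, limma adjusted p = 0.270), and -0.11 without siCtrl 2. RBL2, which encodes the remaining pocket protein p130, averaged 32.3 ± 2.36 TPM in siNUDT5 and 29.7 ± 4.65 TPM in siCtrl (SD, n = 3 each) and did not pass.

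**Figure D3:**
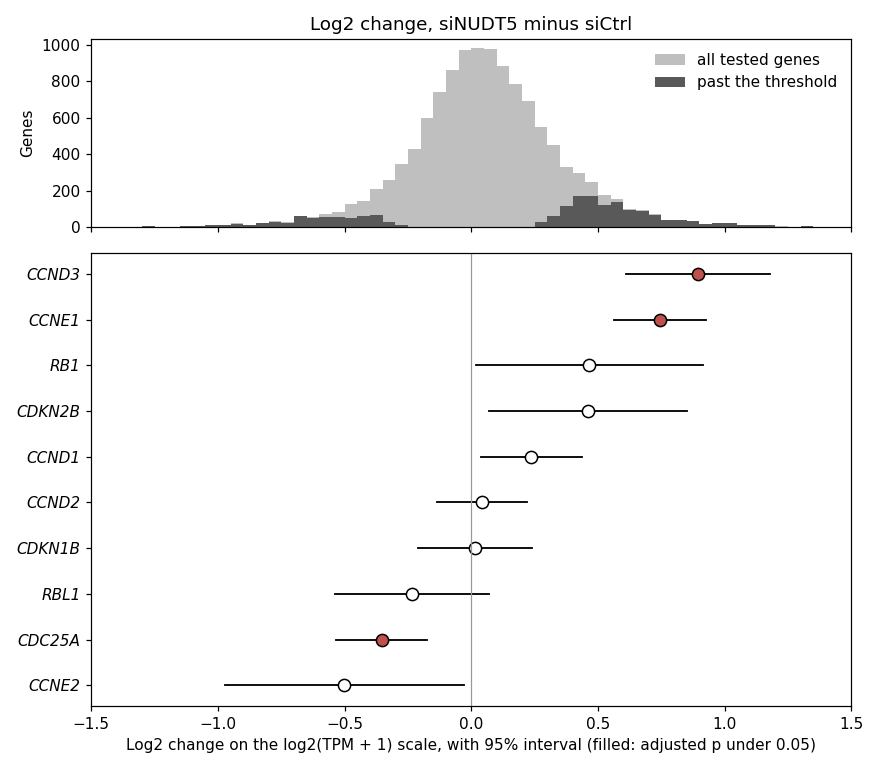
Top, number of tested genes by log2 change (siNUDT5 minus siCtrl), with those past the threshold in dark grey, cut at 1.5 on either side. Bottom, log2 change of each of the 10 genes with its 95% interval from the limma fit, where filled points are past the threshold: CCND3 (0.89), CCNE1 (0.75) and CDC25A (-0.35).

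In order of level, which TPM allow because they are scaled for length, CCND1 came first in both groups and CDKN2B last. In siNUDT5 the order was CCND1, CCNE1, CCND2, RB1, CCND3, CDC25A, CDKN1B, RBL1, CCNE2 and CDKN2B. In siCtrl it was CCND1, CCND2, CCNE1, CDC25A, CDKN1B, RB1, RBL1, CCND3, CCNE2 and CDKN2B. In siNUDT5 the values of the neighbours CCNE1 and CCND2, RB1 and CCND3, and CCND3 and CDC25A overlapped. In siCtrl those of CDKN1B and RB1, RB1 and RBL1, RBL1 and CCND3, and CCND3 and CCNE2 overlapped. CCNE1 thus lay below CCND2 in every siCtrl library and level with it in siNUDT5, and CCND3 came up to RB1 and CDC25A.

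To show which letters lie at annotated starts of these genes, promoter windows were searched for the E2F motif spelled TTTGGCGC, TTTGCCGC, TTTCGCGC or TTTCCCGC on either strand. RefSeq windows of 300 bases were found for 7 of the 10 members, reaching from 250 bases before the annotated start to 50 after it. The RB1 window belongs to a start 172724 bases inside the gene as GENCODE 29 draws it, so the promoter at the outermost RB1 start was not searched, and RB1 is left out here. CDC25A and RBL1 held a match. No match was found in the windows of CCNE1, CDKN1B and CDKN2B or in the 3 windows of CCND3. The CCND3 starts lay 111152, 108549 and 1669 bases inside the gene as GENCODE 29 draws it, and the CDKN1B start 2310 bases inside. The outermost starts of CCND3 and CDKN1B were therefore not searched either. Counted by window, 3.31% of all 35116 windows and 4.88% of 13643 windows of tested genes held a match. Counted by gene, 64.0% of 25 E2F target genes listed for S phase entry did. The windows with a match are printed 5′ to 3′ with the motif in capitals, from GRCh38.p14, on the minus strand, at chr3:48188368-48188667 for CDC25A and chr20:37095948-37096247 for RBL1.
CDC25A: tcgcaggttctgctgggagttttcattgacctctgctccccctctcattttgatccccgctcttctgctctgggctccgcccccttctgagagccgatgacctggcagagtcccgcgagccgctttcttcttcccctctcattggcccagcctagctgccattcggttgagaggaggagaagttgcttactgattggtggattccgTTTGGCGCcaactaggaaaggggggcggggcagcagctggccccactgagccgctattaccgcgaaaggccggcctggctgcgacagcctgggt
RBL1: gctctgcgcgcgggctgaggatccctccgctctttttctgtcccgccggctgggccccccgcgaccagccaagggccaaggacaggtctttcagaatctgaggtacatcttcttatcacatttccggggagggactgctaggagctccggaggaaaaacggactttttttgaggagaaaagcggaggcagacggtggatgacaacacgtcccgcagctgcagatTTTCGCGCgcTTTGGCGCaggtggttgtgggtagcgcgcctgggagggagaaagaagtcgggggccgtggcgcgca
Counting the annotated start as 0, the CDC25A match began at position -44 and the RBL1 matches at -26 and -16, without overlap between them. Of these genes CDC25A fell (log2 change -0.35) and RBL1 had a log2 change of -0.23, or -0.11 without siCtrl 2, that did not pass. A match is a description of the letters, and its part in either change was not tested.

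The 3′ UTRs were searched for the word AAGACTT, its shifted form AGACTTA, and a further word of 7 bases, GATTAAC, which an earlier pass over these same log2 changes had picked as common among genes that fell (the first pair) or rose (GATTAAC), so a match is no separate evidence. In the longest annotated 3′ UTR, CDC25A and CDKN2B each held the second word. RB1 held the last word once, CCNE2 held it at 2 places, and the other 6 members held no such word. Among 11481 tested genes searched, 24.2% held a word of the first pair and 6.35% held GATTAAC. The sites of 3 members, from GENCODE 29 transcripts, follow 5′ to 3′ with the word in capitals.
CDC25A: aactcctggAGACTTAttttactgc
CDKN2B: tgagagtggAGACTTAtaagaagga
RB1: atcttgtgtGATTAACttatttaga
The part of the words in the members' values was not tested. CDC25A fell, while CDKN2B, with the same word, had a log2 change of 0.46. RB1 and CCNE2, which share GATTAAC, had log2 changes of 0.47 and -0.50, none of the last 3 past the threshold. CCND3 and CCNE1, which rose, held none of the words.

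The CDKs that the members bind or are inhibited for did not pass the test. In a list of 11 G1 kinases and their activators none rose or fell, and the median log2 change was 0.06. CDK4 averaged 296 ± 16.8 TPM in siNUDT5 and 285 ± 23.9 TPM in siCtrl, CDK6 86.3 ± 8.85 TPM in siNUDT5 and 77.9 ± 19.0 TPM in siCtrl, and CDK2 133 ± 7.51 TPM in siNUDT5 and 148 ± 1.81 TPM in siCtrl (SD, n = 3 each). Of 5 other CDK inhibitors tested none passed either. As 16.1% of all tested genes passed, nothing particular to either list is read from these counts. CDKN1A, which encodes p21, averaged 263 ± 10.2 TPM in siNUDT5 and 224 ± 29.2 TPM in siCtrl (SD, n = 3 each, log2 change 0.24, limma adjusted p = 0.153). CDKN1C, with means of 3.42 TPM in siNUDT5 and 2.11 TPM in siCtrl, had the largest log2 change of the 5 inhibitors tested, 0.52 (limma adjusted p = 0.0842). CDKN2A was too low to be tested, at 0.213 to 0.496 TPM in siNUDT5 and 0.190 to 0.446 TPM in siCtrl. Without siCtrl 2, 2 of the 11 kinase genes rose, beside 2665 of all 12236 tested genes. Without siCtrl 1, 1 of the 5 inhibitors rose, beside 1331 of all tested genes.

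Upstream of the members, SKP2 had the largest fall of the listed genes on the log2(TPM + 1) scale, which understates low genes. With a pseudocount of 0.1 TPM the log2 change was -0.92 for the lower gene E2F5 and -0.90 for SKP2. SKP2 encodes the ubiquitin ligase subunit that marks p27 for degradation. SKP2 was at 58.3, 52.4 and 56.2 TPM in siNUDT5 1 to 3, against 92.2, 119 and 101 TPM in siCtrl 1 to 3, with no overlap. The log2 change was -0.89 (limma adjusted p = 0.00197) and passed under all 14 alternatives. The other 20 genes tested for turnover of G1 regulators did not pass, and the median of the 21 was -0.03. As 16.1% of all tested genes passed, nothing is read from the count of 1 in 21. Without siCtrl 2, 2 of the 21 rose beside the fall of SKP2, where 2665 of all 12236 tested genes rose and 1137 fell.

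Of 15 transcription regulators tested that are known to act on these genes, 4 fell and 1 rose, with a median log2 change of -0.07. Of all tested genes 5.20% fell and 10.9% rose. The list was chosen with earlier results of these data known, so nothing particular to it is read from its count. STAT3, an activator of CCND1, averaged 46.3 ± 0.268 TPM in siNUDT5 and 82.4 ± 2.08 TPM in siCtrl (SD, n = 3 each), a log2 change of -0.82 (limma adjusted p = 0.000699) that passed under all 14 alternatives. MAX, the partner of MYC, fell (-0.39, limma adjusted p = 0.0170), as did ETS2 (-0.38, limma adjusted p = 0.0367). KLF6 rose (0.44, limma adjusted p = 0.0360). MYC, a listed gene singled out here after its value was seen, averaged 150 ± 4.89 TPM in siNUDT5 and 191 ± 4.84 TPM in siCtrl (SD, n = 3 each, log2 change -0.35, limma adjusted p = 0.0143). STAT3 alone passed without siCtrl 3 or any 1 siNUDT5 library. Over the 14 alternatives KLF6 passed under 7, ETS2 under 8, and MAX and MYC under 9 each.

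On the E2F side, 2 of 21 RB partners, E2F and DREAM factors fell and none rose, with a median of 0.04. Of all tested genes 5.20% fell. This list too was chosen with earlier results known, so nothing particular to it is read from its count. With median-ratio scaling 4 of the 21 fell, where 895 of all 12236 tested genes fell. E2F5, a repressive family member that works with the pocket proteins, averaged 4.46 ± 0.275 TPM in siNUDT5 and 8.63 ± 1.69 TPM in siCtrl (SD, n = 3 each), a log2 change of -0.81 (limma adjusted p = 0.00749). E2F3, an activating member, averaged 23.2 ± 1.82 TPM in siNUDT5 and 32.1 ± 4.38 TPM in siCtrl (SD, n = 3 each, log2 change -0.45, limma adjusted p = 0.0359). E2F1 averaged 58.4 ± 3.31 TPM in siNUDT5 and 51.8 ± 8.78 TPM in siCtrl and did not pass. E2F5 alone passed without siCtrl 3 or any 1 siNUDT5 library. Without siCtrl 2, 3 of the 21 fell and 3 rose, where 1137 of all 12236 tested genes fell and 2665 rose.

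Of 27 E2F target genes of S phase entry tested, 1 rose, 2 fell and 24 did not pass, with a median log2 change of -0.04. Of all tested genes 16.1% passed, so nothing particular to this list is read from its count. PCNA, the sliding clamp of the replication fork, averaged 589 ± 34.8 TPM in siNUDT5 and 454 ± 50.9 TPM in siCtrl (SD, n = 3 each, log2 change 0.38, limma adjusted p = 0.0308). SLBP, which binds histone mRNA, had a log2 change of -0.33 and thymidylate synthase TYMS one of -0.29, and both fell. With median-ratio scaling 1 rose and 6 fell, where 1041 of all 12236 tested genes rose and 895 fell. Without siCtrl 1 none rose and 4 fell, where 1331 of all tested genes rose and 743 fell. No gene of this list passed without siCtrl 3 or any 1 siNUDT5 library.

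**Figure D4:**
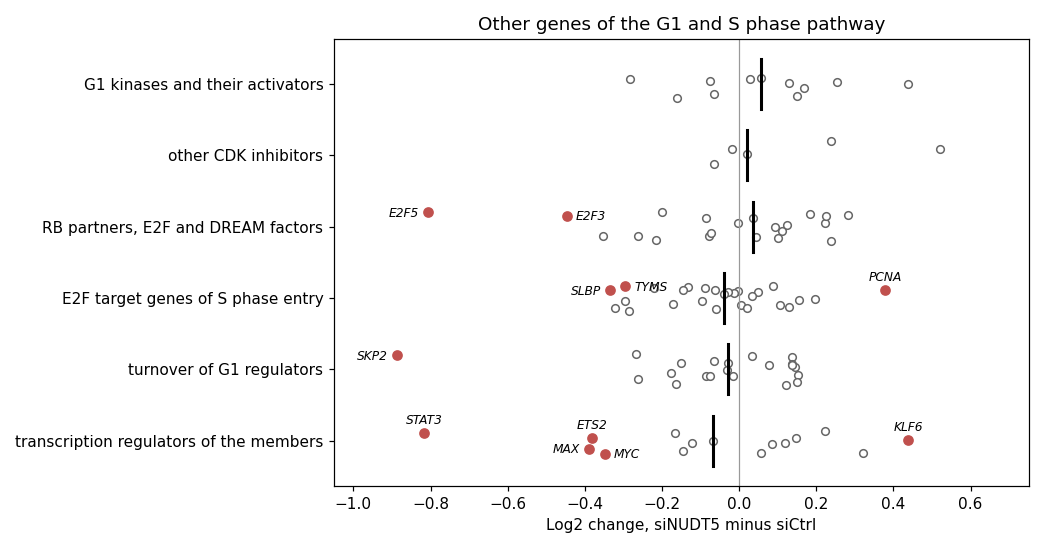
Log2 change (siNUDT5 minus siCtrl) of each tested gene in 6 lists of the pathway that hold none of the 10 members, with the median of each list as a black bar and genes past the threshold in red with their names. SKP2, STAT3 and E2F5 lie farthest to the left, and the list medians lie between -0.07 and 0.06.

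By the smallest root mean square difference from CCND3 in centred log2(TPM + 1) over the 6 libraries, the closest of all tested genes were METRNL (0.0423), THY1 (0.0510) and ELFN1 (0.0544). METRNL, which encodes a secreted protein, averaged 36.9 ± 1.92 TPM in siNUDT5 and 19.6 ± 2.76 TPM in siCtrl (SD, n = 3 each, log2 change 0.89). THY1, a surface glycoprotein of mesenchymal cells, had a log2 change of 0.85, and ELFN1 one of 0.88. In all 3, as in CCND3, siCtrl 2 was the lowest library. The genes were picked for likeness over these same values, so their similar changes and low siCtrl 2 follow from the choice.

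**Figure D5:**
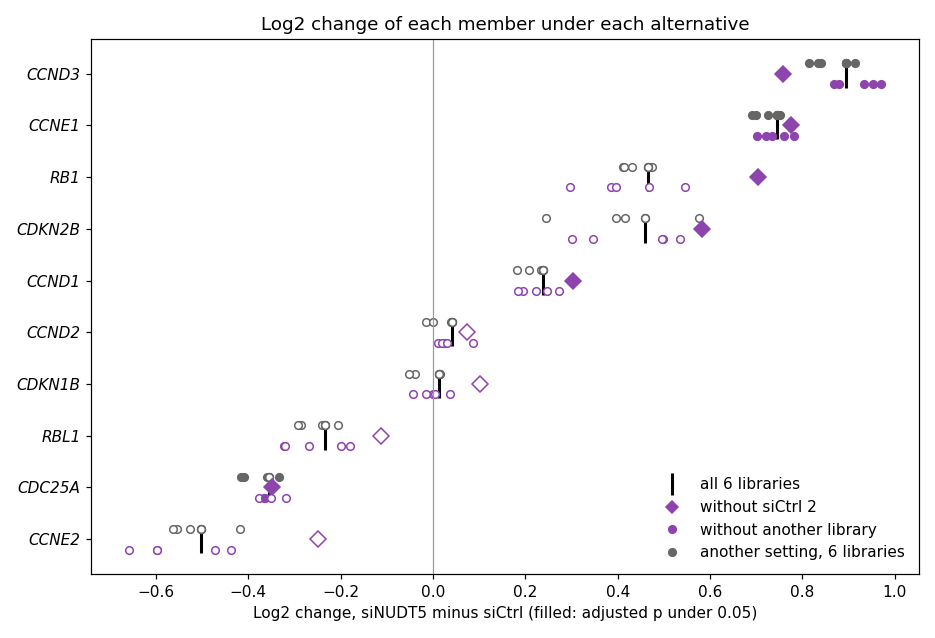
Log2 change of each of the 10 genes with all 6 libraries (black bar), without siCtrl 2 (diamond), without another library (purple circles) and under other settings with all 6 libraries (grey circles), where filled symbols are past the threshold. CCND3 and CCNE1 are past it throughout, and RB1 is at 0.70, against 0.47 with all libraries, when siCtrl 2 is left out.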

How the data were processed

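Polyadenylated RNA of 3 siNUDT5 and 3 siCtrl U2OS libraries was measured with a stranded KAPA kit, per the labels' protocols. The authors deposited TPM per gene symbol, summing to the same total in every library. Tools named, without a role, in the submitters' processing notes are STAR 2.7.3a and DESeq2 1.22.1, with the build hg19. The sources used here do not say how the TPM were made, with which annotation, or how strand and shared reads were treated. Groups and replicate numbers come from sample titles.

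TPM are no counts, so no count model was run. limma 3.58.1 in R 4.3.3 fitted log2(TPM + 1) of 12236 genes averaging 1 TPM or more (lmFit, eBayes with a trend, two-sided, Benjamini-Hochberg), and the log2 change understates low genes. The fit was tested on simulated data with independent noise, alike in all 6 libraries, and 100 genes changed by each size. It recovered 48% of genes changed by 0.5 log2 and 99% of those changed by 1, with 9 false calls. The deposited data hold more calls and a control that stood apart, so these shares may differ there. A gene that did not pass may therefore still have changed. Shares within a cyclin family were tested by exact permutation of the 6 libraries. The members and gene lists were chosen with earlier results of these data known. Of the lists, up to 4 genes past the threshold are named, by size of change, and 1 listed gene was not in the table. MYC and the listed genes given that did not pass or were not tested lie outside this rule. Promoters are RefSeq's (GRCh38.p14) and 3′ UTRs GENCODE 29's, both matched by symbol with Python 3.11.15 and pandas 2.3.3. Figures were drawn with matplotlib 3.10.9. The alternatives were other pseudocounts, filters, scalings and variance settings, a block for the replicate number, and the omission of each library. One read in a low gene moves TPM by a step that differs between genes, so no counting interval is given.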

Additional observations from a re-analysis of the deposited data

How the results depend on the processing

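Over the 10 members and their 139 alternative values, 125 kept direction and side of the threshold, 5 lost the call, all of CDC25A, 3 gained it, all without siCtrl 2, and 6 turned sign. Those 6 were CCND2 at -0.014 and CDKN1B at -0.040 with median-ratio scaling, CCND2 at -0.00068 and CDKN1B at -0.052 with quantile normalization, and CDKN1B without siCtrl 1 or siCtrl 3, in a range of -0.044 to 0.10 over single libraries left out, all changes of genes not past the threshold. The count of members past the threshold was 2 to 6 with a library left out, and that of all genes 766 to 3802, against 1970 with all libraries. The difference in the CCND1 share of D cyclins, 0.51 percentage points with all libraries, was -0.39 to 1.53 with a library left out. Same-numbered libraries of the groups did not deviate together (correlations of deviations across genes of -0.43, -0.54 and -0.045), no library correlated best with its own number, and the replicate block left 739 genes and 2 members, with CDC25A at adjusted p = 0.146. The causes of these shifts were not tested. Beyond the members, 15 named genes, NUDT5 included, kept their direction in all 210 alternative values, and 48 of these were no longer past the threshold. The files give TPM and no read counts, so what depth limits in each gene was not measured.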
